A study of Homo sapiens with 30 samples.

Results

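TGF-beta and activin signalling was followed through 9 genes, TGFB1, TGFB2, INHBA, TGFBR1, TGFBR2, SMAD3, SMAD7, TGFBI and ID1, taken by symbol from the 26249 genes with 1 value per line in the RNA-seq table. All of them had an FPKM (fragment count scaled by transcript length and library size) of 1 or more in some line, as did 12666 genes in all. To learn how ERG and active AKT act together, the study expressed them alone or combined in RWPE1, an immortalized line of normal human prostate epithelium kept in serum-free keratinocyte medium with EGF and pituitary extract. RWPE1-Vector cells carried the empty retroviral vectors pQCXIH and pBabe-Puro, RWPE1-ERG cells carried ERG isoform 1 with the other vector empty, RWPE1-mAKT cells carried myristoylated, constitutively active AKT, and RWPE1-ERG+mAKT cells carried both. All were stable lines selected with hygromycin and puromycin from 1 parental line, so they give no second genetic background. Chromatin lists came from ERG ChIP-seq in RWPE1-ERG+mAKT and in VCaP, a prostate cancer line with a TMPRSS2-ERG fusion, ATAC-seq (open chromatin) in 3 lines, RWPE1-ERG, RWPE1+mAKT and the line with both, ERK2 ChIP-seq in RWPE1-Vector and RWPE1-ERG, and H3K27me3 ChIP-seq in these same lines and in RWPE1-ERG S96E, whose ERG carries the phosphomimetic change S96E. The vector, ERG and ERG S96E lines of the ERK2 and H3K27me3 experiments carried the pQCXIH construct alone, without pBabe-Puro. VCaP cells for ChIP were treated with DMSO or with the PI3K inhibitor LY294002, and the VCaP list used here is labelled without the inhibitor. They were cultured in DMEM with fetal bovine serum, unlike the serum-free RWPE1 lines. ChIP DNA was pooled from 3 experiments before sequencing.

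TGF-beta and activin are secreted dimers of 1 protein family. They bind a type II receptor, which activates a type I receptor, which phosphorylates SMAD2 and SMAD3; these join SMAD4 and enter the nucleus to change transcription. In prostate and other epithelia the pathway is known for holding back proliferation and for matrix production, and SMAD7 is an inhibitor that the pathway itself induces. ERG is an ETS factor whose binding sites centre on GGAA, in a subset of cases beside an AP-1 site.

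Of the 10 ERG sites found within 20 kb of these loci, 4 are shown first, as the DNA that the ERG results below refer to. The first 3 windows come from the ERG list of RWPE1-ERG+mAKT and are the peaks within 20 kb of a locus whose q-value was 0.01 or less. The fourth, from the same list and chosen after its sequence was seen, holds an AP-1 word that runs into GGAA. Its peak did not pass that limit, with a −log10 q-value of 0.155 and rank 3760 of 9113 by p-value. Each is the reference sequence of GRCh37 (hg19), plus strand, for 100 bp to either side of a peak summit, with GGAA or its reverse complement, and the AP-1 words TGACTCA or TGAGTCA, in capitals.
ID1, chr20:30198537-30198737, 5.48 kb past the gene start: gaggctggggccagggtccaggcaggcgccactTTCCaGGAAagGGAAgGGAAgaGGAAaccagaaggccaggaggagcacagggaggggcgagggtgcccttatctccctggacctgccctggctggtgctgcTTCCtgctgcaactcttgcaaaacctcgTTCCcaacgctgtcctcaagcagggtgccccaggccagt
TGFBI, chr5:135347801-135348001, upstream of the gene: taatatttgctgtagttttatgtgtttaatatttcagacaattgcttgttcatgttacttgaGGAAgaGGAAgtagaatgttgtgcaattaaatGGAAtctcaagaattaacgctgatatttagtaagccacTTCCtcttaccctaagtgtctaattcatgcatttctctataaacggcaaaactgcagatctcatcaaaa
TGFB2 locus, chr1:218879510-218879710, far past the gene: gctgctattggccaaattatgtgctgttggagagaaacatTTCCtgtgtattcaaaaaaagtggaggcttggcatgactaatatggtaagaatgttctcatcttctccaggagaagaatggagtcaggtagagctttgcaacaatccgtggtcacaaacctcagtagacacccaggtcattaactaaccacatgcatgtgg
TGFBR2, chr3:30723254-30723454, intron: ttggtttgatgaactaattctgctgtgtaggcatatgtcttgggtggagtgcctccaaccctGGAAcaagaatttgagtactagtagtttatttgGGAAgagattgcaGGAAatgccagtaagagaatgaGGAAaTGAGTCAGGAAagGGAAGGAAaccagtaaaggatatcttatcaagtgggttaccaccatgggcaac
The ID1 window held 7 GGAA words, the TGFBI window 4, the TGFB2 window 1 and the TGFBR2 window 7.

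In the RNA-seq table each line had 1 FPKM pooled over 3 libraries, so no spread between libraries was available, none of the differences below was tested, and a gene was counted as changed only past a 2-fold ratio of FPKM + 0.1. The targeted genes followed the labels: ERG had FPKM of 0.264 in vector, 358 in RWPE1-ERG, 0.435 in RWPE1-mAKT and 328 in RWPE1-ERG+mAKT, and AKT1 had 58.7, 64.2, 156 and 281. AKT1 thus also differed between the 2 lines with mAKT, by a log2 ratio of 0.85 for ERG+mAKT over mAKT. Its part in the ratios of that comparison was not tested. The sum of FPKM ran from 846035 to 1246057 over the lines, and the median log2 ratio of all genes kept lay between -0.08 and 0.02 in the 4 comparisons. The basal markers KRT5, KRT14, TP63 and ITGB4 and the epithelial markers EPCAM, CDH1, KRT8 and KRT18 were present in every line. Of 4 luminal markers 1 reached an FPKM of 1, and KLK3 and TMPRSS2 were listed at 0 or near it. All 5 fibroblast and 4 endothelial markers stayed below an FPKM of 1, and of 4 leukocyte markers only CD68, a lysosomal protein, exceeded it. In RWPE1-ERG cells 2 of the 4 basal markers were past 2-fold lower than in vector (KRT5 log2 ratio -1.42, KRT14 -2.07) and 2 of the 4 epithelial markers past 2-fold higher (KRT8 1.51, KRT18 1.17). In ERG+mAKT over ERG 1 basal marker was past 2-fold higher (KRT5 1.59), and in ERG+mAKT over mAKT 1 was past 2-fold lower (KRT14 -1.09). Their part in the differences below was not tested, and in bulk RNA fewer cells of a type cannot be told apart from less RNA per cell.

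The 9 genes spanned a wide range of levels. On the FPKM scale, which is per length of transcript, TGFBI was the highest in every line and ID1 the second, followed by TGFB1, TGFBR2 and SMAD3 in the same order in all 4 lines. INHBA and TGFBR1 exchanged places: TGFBR1 was the higher in vector and RWPE1-ERG+mAKT, and INHBA in RWPE1-ERG and RWPE1-mAKT. SMAD7 and TGFB2 were the 2 lowest. Between the highest and the lowest line, the ratio of FPKM was 2.40 for SMAD7, 2.08 for INHBA and 2.04 for TGFBI, and under 2 for the other 6 genes, down to 1.30 for TGFBR2.

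**Figure D1:**
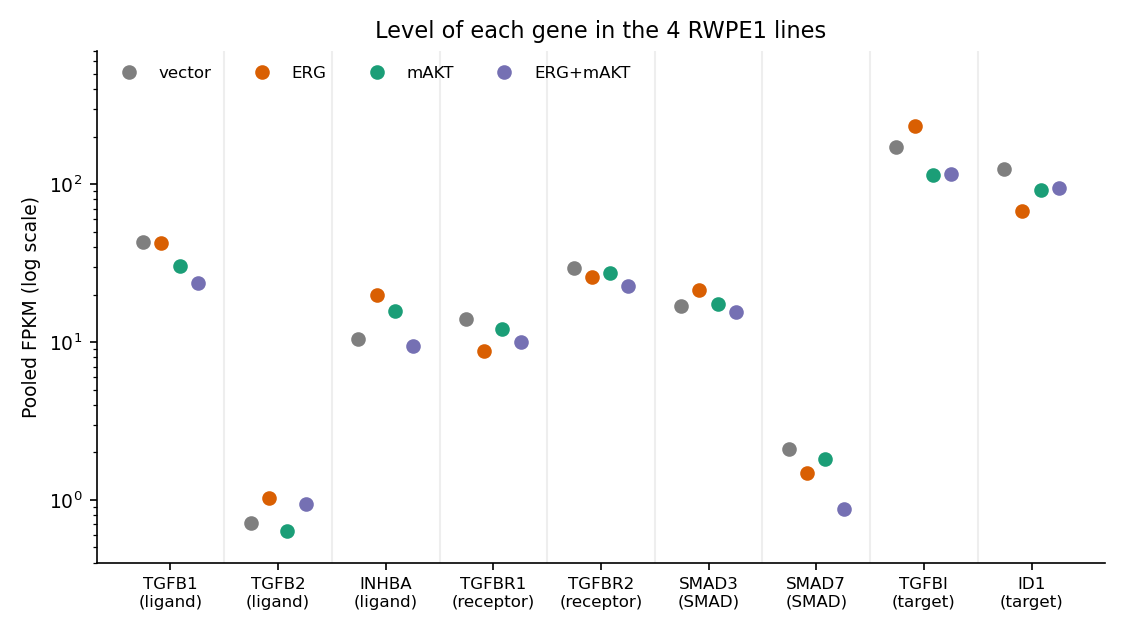
Pooled FPKM on a log scale for each of the 9 genes (x axis, with the role of each) in the 4 RWPE1 lines, 1 point per line and no error bars, as only pooled values were given. TGFBI and ID1 sit at the top, SMAD7 and TGFB2 at the bottom, and INHBA is higher in RWPE1-ERG (19.8) and RWPE1-mAKT (15.7) than in the other 2 lines.

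Of the ligands, TGFB1, the most widely expressed TGF-beta, had an FPKM of 43.2 in vector, 42.3 in RWPE1-ERG, 30.1 in RWPE1-mAKT and 23.6 in RWPE1-ERG+mAKT. It was lower in both lines with mAKT, and close to vector with ERG alone. The log2 ratio was -0.03 for ERG over vector, -0.52 for mAKT over vector and -0.84 for ERG+mAKT over ERG. TGFB2, a second TGF-beta made by many epithelia, had 0.710, 1.03, 0.634 and 0.946 in the same order. Both lines with ERG were the higher, by a log2 ratio of 0.48 without mAKT and 0.51 with it, at a level near the FPKM of 1 that a gene needed in either line to be counted. The table's locus for TGFB2 is a merged stretch of 830 kb on chromosome 1 that it also gives for TGFB2-AS1, TGFB2-OT1 and LYPLAL1-AS1.

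INHBA encodes the subunit of activin A and had an FPKM of 10.4 in vector, 19.8 in RWPE1-ERG, 15.7 in RWPE1-mAKT and 9.50 in RWPE1-ERG+mAKT. Each factor alone went with a higher level, while the line with both was the lowest of the 4. ERG over vector gave a log2 ratio of 0.92 and ERG+mAKT over mAKT one of -0.71, so that the difference between these ratios was -1.63, the largest in size among the 9 genes. A pair of log2 ratios with ERG past 1.5-fold in opposite directions was found for INHBA alone among the 9 and for 119 of the 12666 genes above, or 0.94%. The table gives INHBA and the antisense gene INHBA-AS1 the same locus, with an FPKM for each. The counting is not stated to use strand, so reads from any stretch that both genes cover may have been assigned to either.

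The receptors moved less. TGFBR1, the type I receptor that phosphorylates SMAD2 and SMAD3, had an FPKM of 13.9 in vector, 8.76 in RWPE1-ERG, 12.1 in RWPE1-mAKT and 10.1 in RWPE1-ERG+mAKT. Both lines with ERG were below both lines without it, by a log2 ratio of -0.66 over vector and -0.27 over mAKT. TGFBR2, the type II receptor that binds the ligand, had 29.3, 25.8, 27.3 and 22.5. Its log2 ratios in ERG over vector, mAKT over vector, ERG+mAKT over ERG and ERG+mAKT over mAKT lay between -0.28 and -0.10.

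SMAD3, which carries the signal into the nucleus, had an FPKM of 16.9 in vector, 21.2 in RWPE1-ERG, 17.4 in RWPE1-mAKT and 15.6 in RWPE1-ERG+mAKT. It was highest with ERG alone, at a log2 ratio of 0.33 over vector, and -0.45 for ERG+mAKT over ERG. SMAD7, the inhibitor of the receptors, had 2.096, 1.48, 1.81 and 0.875. It was lowest in the line with both factors, with log2 ratios of -0.70 over ERG and -0.97 over mAKT, and -1.17 over vector. With a pseudocount of 0.01 in place of 0.1 the ratio over mAKT was -1.04, past 2-fold.

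TGFBI, a secreted matrix protein named for its induction by TGF-beta, had an FPKM of 171 in vector, 234 in RWPE1-ERG, 115 in RWPE1-mAKT and 116 in RWPE1-ERG+mAKT. ERG alone was the high line, with a log2 ratio of 0.45 over vector, and both lines with mAKT were the low ones, with 0.02 for ERG+mAKT over mAKT. ID1, an inhibitor of basic helix-loop-helix factors and a classic BMP target that TGF-beta can repress, had 124, 67.6, 91.5 and 93.9. ERG alone was the low line here, with a log2 ratio of -0.88 over vector, whereas ERG+mAKT over mAKT gave 0.04. The difference between the ratios with ERG was 0.91 for ID1 and -0.43 for TGFBI.

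Counted over the comparisons, ERG over vector put 4 of the 9 genes higher and 5 lower, with 0 past 2-fold, where 5% of 12371 genes were past 2-fold higher and 1.81% lower. TGFB2, under an FPKM of 1 in vector, RWPE1-mAKT and RWPE1-ERG+mAKT, was left out of the counts past a limit for mAKT over vector and ERG+mAKT over mAKT. For mAKT over vector, 2 were higher and 7 lower, with 0 of 8 past 2-fold against 1.53% higher and 1.26% lower of all genes. For ERG+mAKT over ERG, 7 of 9 were lower, and 2 of them, INHBA at -1.05 and TGFBI at -1.01, were past 2-fold, where 3.62% of 12440 genes were past 2-fold lower and 2.96% higher. Both lie at the limit: centred on the median of all genes, 0 of 9 were past it, at log2 ratios of -0.995 and -0.956, and with a pseudocount of 1 only TGFBI was. For ERG+mAKT over mAKT, 3 were higher and 6 lower, with 0 of 8 past 2-fold against 2.96% higher and 1.3% lower. The median log2 ratio of the members was -0.45 for ERG+mAKT over ERG, beside -0.05 for all genes, and -0.03, -0.20 and -0.27 for ERG over vector, mAKT over vector and ERG+mAKT over mAKT, beside -0.01, 0.02 and -0.08. The share of all genes higher or lower by any size was not counted. The any-size counts of members therefore have no background beyond these medians. The comparisons share lines, so a gene that is high in RWPE1-ERG enters 1 ratio as the numerator and another as the denominator.

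**Figure D2:**
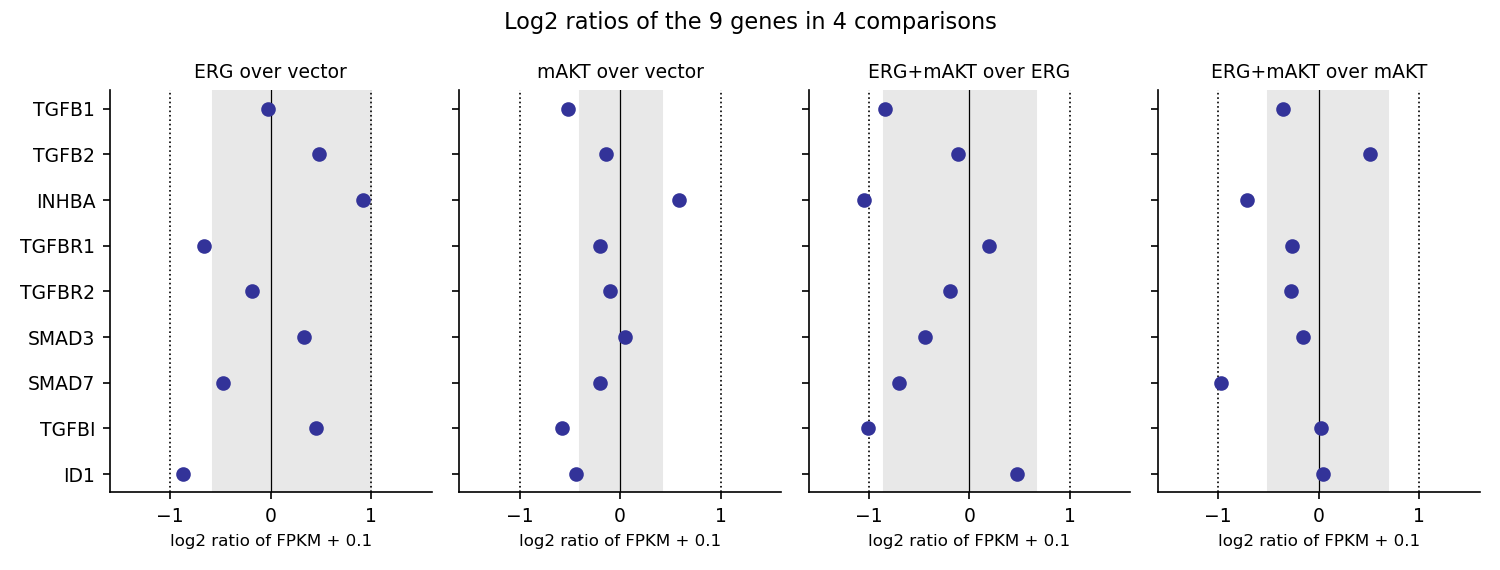
Log2 ratio of FPKM + 0.1 (x axis) for the 9 genes (y axis) in 4 comparisons, with dotted lines at a 2-fold ratio and a grey band from the 5th to the 95th percentile of all genes kept. Only INHBA and TGFBI in ERG+mAKT over ERG lie past a dotted line, at -1.05 and -1.01.

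At a limit of 1.5-fold, ERG over vector held 1 member higher (INHBA) and 2 lower (TGFBR1 and ID1), beside 9.3% and 4.87% of all genes. mAKT over vector held 1 higher, INHBA at 0.59, beside 3.03%, and 0 lower, beside 2.89%. INHBA was just past the limit, and under it when centred on the median of all genes (0.57) or with a pseudocount of 1 (0.55). ERG+mAKT over ERG held 4 lower, TGFB1, INHBA, SMAD7 and TGFBI, beside 9.24% of all genes, and 0 higher, beside 5.89%. ERG+mAKT over mAKT held 2 lower, INHBA and SMAD7, beside 3.47%, and 0 higher, beside 5.92%.

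The rest of the pathway was read from 67 further genes in 7 groups by role, of which 44 reached an FPKM of 1 in some line. Together with the members, 10 of 52 genes kept were past 2-fold lower in ERG+mAKT over ERG, beside 3.62% of all genes, and 1 was higher, beside 2.96%. The latter was ITGB8, an integrin subunit that activates latent TGF-beta, named after its values were seen. It had an FPKM of 2.71 in vector, 1.49 in RWPE1-ERG, 3.26 in RWPE1-mAKT and 3.46 in RWPE1-ERG+mAKT. RWPE1-ERG was thus the low line, and the log2 ratio of ERG+mAKT over mAKT was 0.08. By group, the lower genes were 4 of 13 TGF-beta targets, 3 of 10 inhibitors and feedback genes, 2 of 8 latency and activation genes, 1 of 5 ligands, 0 of 8 receptors, 0 of 6 SMADs and 0 of 2 targets shared with BMP. The 13 targets had a median log2 ratio of -0.63 there, beside -0.05 for all genes. ERG over vector put 4 of 53 higher and 2 lower, beside 5% and 1.81% of all genes. For mAKT over vector 0 of 52 were higher and 4 lower, beside 1.53% and 1.26%, and for ERG+mAKT over mAKT 0 of 51 were higher and 1 lower, beside 2.96% and 1.3%. These lists were drawn up with results of these data known, so the counts describe them and are not independent evidence.

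Among the targets, FN1 and CTGF, like TGFBI, were highest with ERG alone and lower in both lines with mAKT than in vector, with wider swings. FN1, fibronectin, had an FPKM of 83.7 in vector, 228 in RWPE1-ERG, 53.4 in RWPE1-mAKT and 23.8 in RWPE1-ERG+mAKT. It was the highest with ERG alone and the lowest with both, with log2 ratios of 1.44 for ERG over vector and -1.16 for ERG+mAKT over mAKT. The latter ratio was 0.02 for TGFBI, which did not share this further drop. CTGF, a matricellular target, had 10.2, 24.1, 6.33 and 5.54. THBS1, thrombospondin, which can activate latent TGF-beta, had 229, 491, 188 and 163. FN1, CTGF and THBS1 were each past 2-fold higher in RWPE1-ERG than in vector and past 2-fold lower in RWPE1-ERG+mAKT than in RWPE1-ERG.

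Several feedback and latency genes and 1 BMP also differed past 2-fold in some comparison. PMEPA1, a TGF-beta-induced inhibitor of SMAD signalling, had an FPKM of 76.3 in vector and 79.3 in RWPE1-ERG against 37.6 in RWPE1-mAKT and 33.1 in RWPE1-ERG+mAKT. SMURF2, a ubiquitin ligase that acts with SMAD7, had 10.8, 18.9, 9.20 and 7.67, highest with ERG alone. NOG, an inhibitor of BMP ligands named after its values were seen to complete the counts above, had 1.96, 2.23, 0.539 and 0.387. LTBP2, a matrix protein of the latent TGF-beta binding protein family, had 16.4, 16.7, 12.9 and 6.66. LTBP1, which holds latent TGF-beta in the matrix, had 5.84, 1.58, 2.03 and 1.16, and BMP2, a BMP ligand, had 10.4, 4.28, 4.19 and 4.56, so that both were lower in each of the 3 lines with a transgene than in vector.

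**Figure D3:**
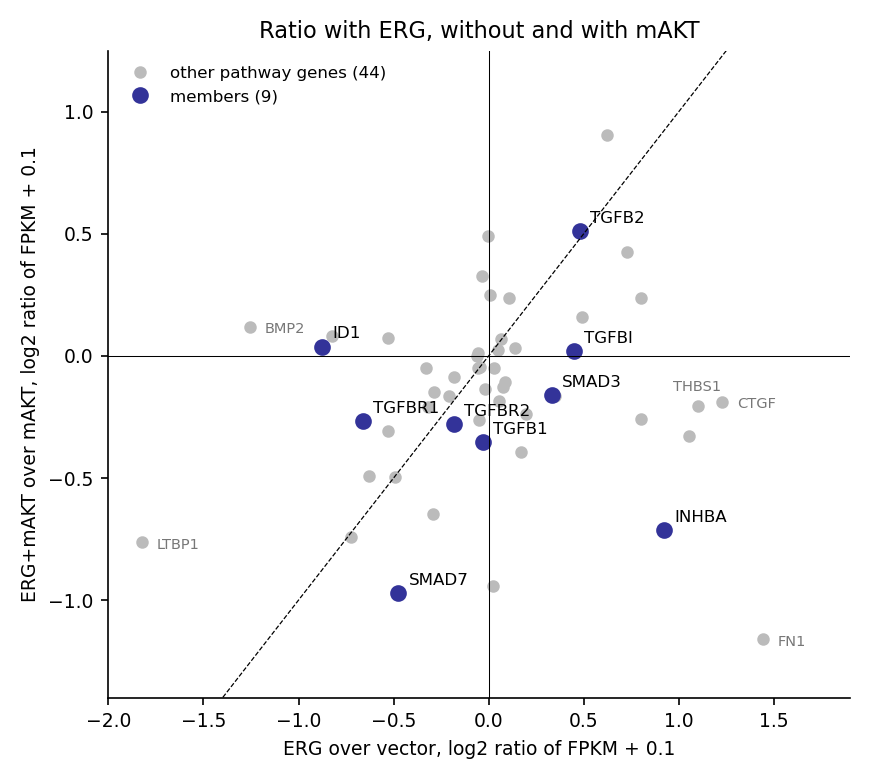
Log2 ratio of FPKM + 0.1 with ERG over without ERG, in cells without mAKT (x axis) and with mAKT (y axis), for the 9 members and 44 other pathway genes that reached an FPKM of 1 in some line. The dashed line marks equal ratios. INHBA (0.92 and -0.71) and FN1 (1.44 and -1.16) lie far below it, and ID1 (-0.88 and 0.04) above it.

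The gene of the pathway lists whose profile over the 4 lines was closest to each member was found by Euclidean distance between centred log2 values, among those that reached an FPKM of 1 in all of them. TGFB1 was closest to SMAD4 at a distance of 0.16, TGFBR1 to BMPR1A at 0.12, TGFBR2 to GDF11 at 0.14, SMAD3 to COL1A1 at 0.18, and TGFBI to SMAD2 at 0.18. ID1 was closest to TGFBR1 at 0.26, SMAD7 to SNAI2 at 0.27 and TGFB2 to BMPR1B at 0.39. INHBA stood furthest from its nearest gene, SMAD3, at 0.57. With 4 points each, these distances describe the lines and nothing more.

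ERG ChIP-seq peaks of the RWPE1-ERG+mAKT line lay within 20 kb of 7 of the 9 loci, 10 peaks in all, beside 30.5% of 25954 genes and 32.9% of the 12530 of them that were expressed (FPKM of 1 or more in some line). Long loci have wide windows. The merged TGFB2 locus alone made up 870 kb of the members' 1636 kb and held 1 of the 10 peaks, which lowers the members' density. The members' windows held 0.611 ERG peaks per 100 kb, beside 0.426 for expressed genes, and within 20 kb of the gene start alone 2 of 9 members had a peak, TGFBI and ID1, beside 15.2% of all genes and 17.4% of expressed genes. Of the 67 other pathway genes, 28 had a peak within 20 kb of the locus, or 41.8%. TGFB1 and INHBA had none. Of the 10 peaks, 3 passed a q-value of 0.01, as did 450 of the 9113 peaks of the list.

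The peak by ID1 was the strongest. It spanned 278 bp, chr20:30198438-30198715, 4.13 kb beyond the end of ID1, with a fold enrichment over background of 8.22 and rank 54 of 9113 by p-value. It overlapped ATAC-seq peaks in all 3 lines and ERK2 peaks in both lists, and its window, shown above, had 2 CAGGAA words. A second ID1 peak, at -11.9 kb from the gene start, had a fold enrichment of 3.52 and overlapped ATAC-seq peaks in all 3 lines. The peak by TGFBI, chr5:135347795-135347998, lay at -16.8 kb from the gene start with a fold enrichment of 5.92, and overlapped an ERK2 peak of vector cells but no ATAC-seq peak. TGFBI also had an intronic peak at 24.9 kb, with a fold enrichment of 3.27, in chromatin open in all 3 lines.

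In the merged TGFB2 locus the peak chr1:218879520-218879716 lay 361 kb past the gene start, 261559 bp beyond the end of the GENCODE transcript, with a fold enrichment of 5.87. It overlapped ATAC-seq peaks in all 3 lines and ERK2 peaks in both lists. Counted from the GENCODE transcript in place of the table's locus, a choice made after the data were seen, TGFB2 had 0 ERG peaks and 6 of the 9 genes had at least 1. The TGFBR1 peak in an intron had a fold enrichment of 4.11 and the TGFBR2 peak in an intron 3.53, the latter open in RWPE1-ERG cells only among the ATAC-seq lists. Both SMAD3 peaks were intronic at 2.82, and the SMAD7 peak lay on a coding exon at 3.53. None of these 3 peaks overlapped an ATAC-seq or ERK2 peak. Neither they nor the TGFBR1 and TGFBR2 peaks passed the q-value limit. Of all 9113 ERG peaks of the list, 18.1% to 20.8% overlapped each ATAC-seq list and 2.91% to 3.56% each ERK2 list. Among the 450 that passed the limit, these shares were 53.6% to 61.3% and 11.3% to 13.3%. Lack of overlap with any given list was thus the common case among all ERG peaks. In VCaP, 2 of 9 loci had an ERG peak, beside 21.4% of all genes and 25% of expressed ones, 1 in an intron of TGFBR2 and 1 in an intron of SMAD3. Neither overlapped an ERG peak of RWPE1-ERG+mAKT, and of the 6143 VCaP peaks only 1.81% did.

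GGAA, on either strand, was present in 9 of the 10 summit windows of RWPE1-ERG+mAKT near the members, beside 87.5% of all windows of the list. CAGGAA, which contains GGAA, was present in 4 of 10, beside 27.4%, and an AP-1 word in 3 of 10, 1 each by TGFBR2, TGFBI and ID1, beside 8.45%. CAGACA, a short SMAD-binding word, was present in 2 of 10, by SMAD3 and TGFBI, beside 15.1%. CCGGAA and the palindrome GTCTAGAC were in 0 of 10, beside 3.74% and 0.143%. In the 23 RefSeq promoters of the 9 genes on GRCh38.p14, CAGACA was in 5, of INHBA, SMAD3, TGFB2 and TGFBR1, beside 16.9% of 35116 promoters. AP-1 words were in 2, of SMAD3 and TGFBR2, beside 4.95%. The ETS words were less frequent than in all promoters. GGAA was in 82.6%, beside 95.5%, CAGGAA in 21.7%, beside 28.4%, and CCGGAA in 8.70%, beside 17.2%. GTCTAGAC was in 0, beside 0.202%. Several of the 23 belong to the same gene and some overlap, so they are not independent.

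**Figure D4:**
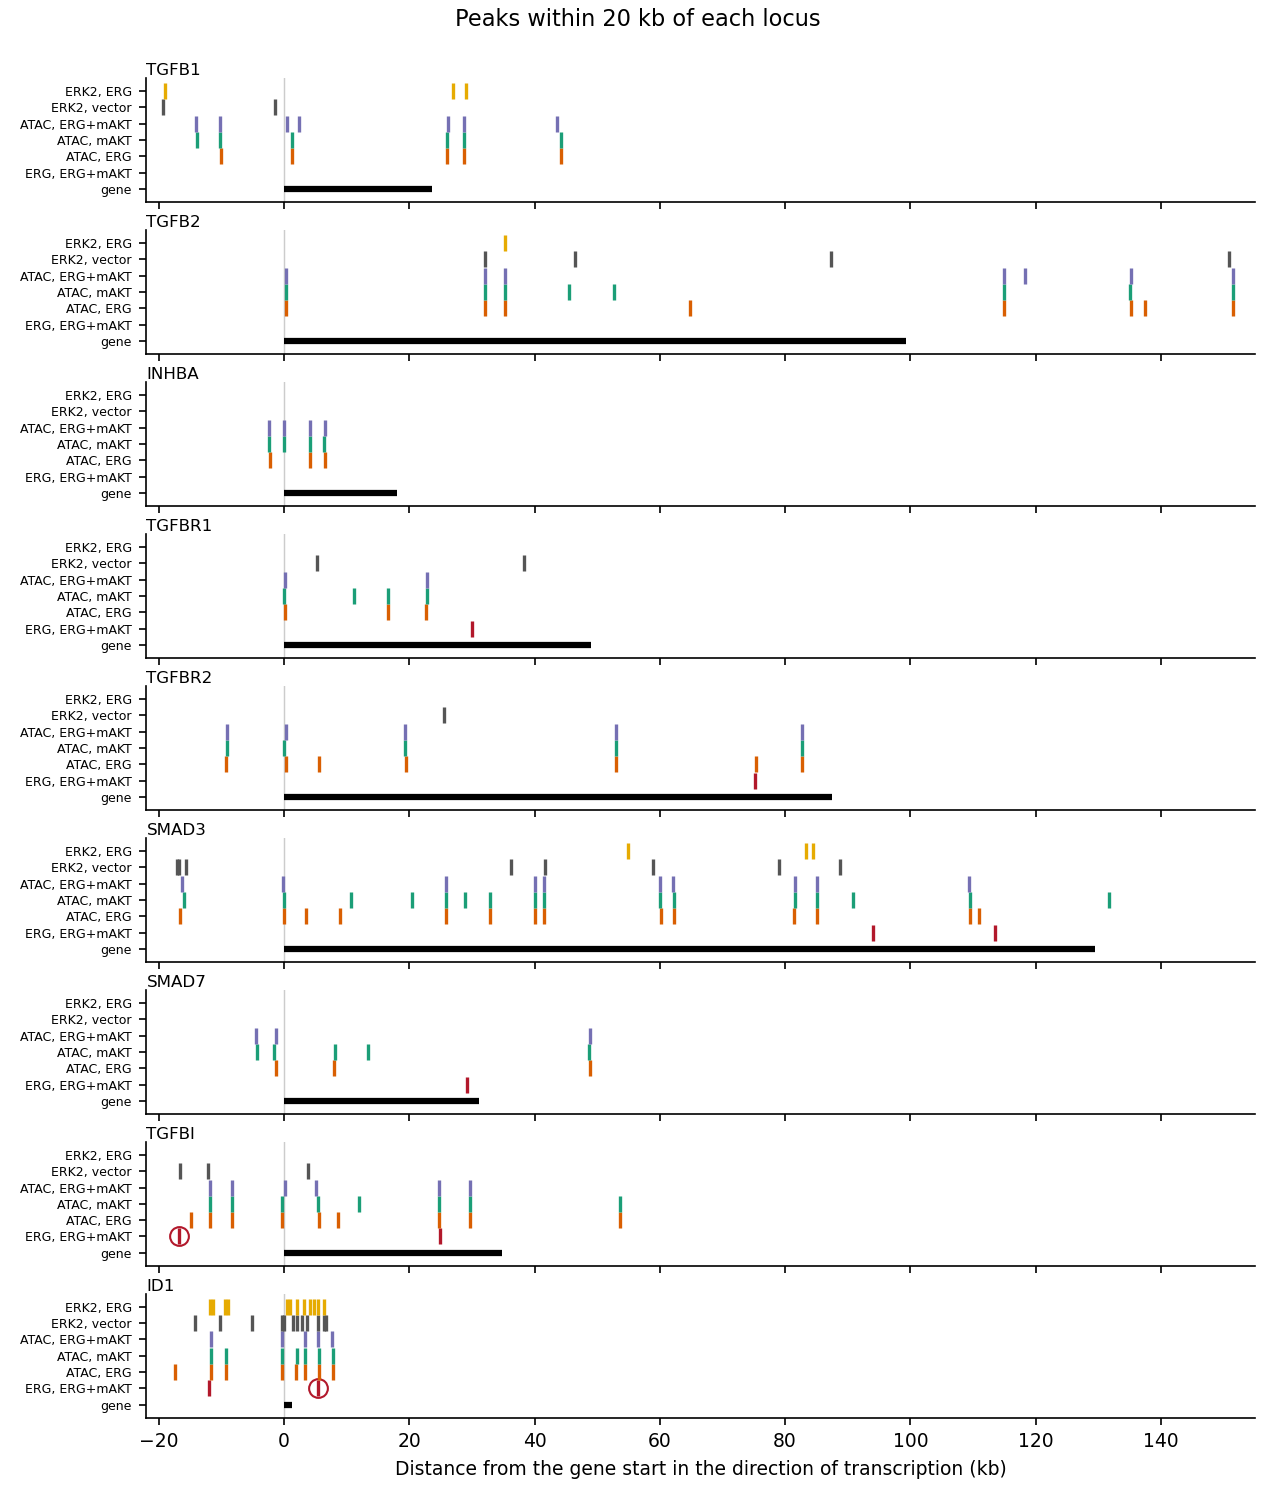
Position of each peak midpoint relative to the gene start (x axis, kb in the direction of transcription) for the 9 genes, with a row for the ERG list of RWPE1-ERG+mAKT, 3 ATAC-seq lists and 2 ERK2 lists, and the GENCODE transcript as a black bar. Circles mark the ERG peaks that passed a q-value of 0.01, by TGFBI (-16.8 kb) and ID1 (5.48 kb). The axis leaves out farther peaks of the merged TGFB2 and INHBA loci, the ERG peak at 361 kb among them, and the 2 VCaP peaks are not drawn.

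All 9 loci had ATAC-seq peaks in every line, as did 89.3%, 88.2% and 84% of all genes, and 99.4%, 99.4% and 98.8% of expressed genes, with ERG, with mAKT and with both. The members held 71, 75 and 57 peaks, from lists of 63354, 57999 and 42081 peaks, so the lists differ in size before any locus is compared. TGFB1 alone had the most peaks in the shortest list, with 5, 6 and 7. Its gene-start peak, chr19:41857029-41860109 in RWPE1-ERG and chr19:41857052-41860081 in RWPE1+mAKT, was split there into chr19:41857189-41857697 and chr19:41858631-41859984. The higher count than in RWPE1+mAKT came from that split, not from a further site. Over the gene start itself a peak was present for 7, 8 and 8 of the 9 genes, beside 52.9%, 51.4% and 47.8% of all genes, and 84.8%, 83.4% and 79.8% of expressed genes. The exceptions were SMAD7, whose nearest peak lay 0.534 to 1.24 kb upstream in all 3 lists, and INHBA in RWPE1-ERG.

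At the INHBA start, a narrow peak of 255 bp in RWPE1+mAKT and 234 bp in RWPE1-ERG+mAKT, with fold enrichments of 4.63 and 4.17, was not in the RWPE1-ERG list, the line with the highest INHBA level. The RWPE1-ERG list had its nearest peak 1.97 kb upstream, at 41744656 to 41745391 on chromosome 7, with a fold enrichment of 8.89, and the other 2 lists had a peak there too, at 7.30 and 5.86. At the other starts the fold enrichment ran from 3.01 for ID1 to 8.62 for TGFBR2 in RWPE1+mAKT, from 3.30 for ID1 to 8.23 for TGFBR2 in RWPE1-ERG, and from 3.36 for TGFB1 to 8.04 for TGFBR1 in RWPE1-ERG+mAKT. No replicate list was available to give these values an error.

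ERK2 peaks were within 20 kb of 8 of 9 loci in vector cells and 4 of 9 in RWPE1-ERG cells, beside 69% and 24.5% of all genes and 77.5% and 33.7% of expressed ones. ID1 stood out with 12 in each list inside a window of 41.2 kb. At least 12 were found for 1.59% of expressed genes in vector and 0.463% in RWPE1-ERG. In each list 1 of these peaks passed a q-value of 0.01: in RWPE1-ERG at chr20:30198266-30198878, over the ERG peak shown above, with a fold enrichment of 5.01, and in vector at chr20:30196625-30196930, with 5.54. TGFB1, TGFB2 and SMAD3 were the other loci with ERK2 peaks in both lists, none of which passed that q-value. At TGFB1 and SMAD3 no peak of either list overlapped a peak of the other. At the merged TGFB2 locus the overlapping peaks lay 361 kb past the gene start. The lists hold 41276 and 5721 peaks from 8393459 and 15020233 ChIP reads, so their counts are not on 1 scale.

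H3K27me3, the mark laid by Polycomb, covered little of most loci. Regions covered 0.286% to 9.16% of the members' loci with 20 kb to either side in vector cells, with a median over the 9 of 4.50% beside a median of 3.56% over expressed genes and 8.998% over genes under an FPKM of 0.1 in every line. In RWPE1-ERG the median was 0.541% beside 0.480%, and in RWPE1-ERG S96E 0.343% beside 1.199%. TGFBR1 had the highest cover in all 3 lists, at 9.16%, 8.44% and 18.2%, but inside the TGFBR1 locus the cover was 2.70%, 0 and 0, so most of it lay in the flanks. INHBA had 6.84%, 4.41% and 5.36%, and ID1 7.65%, 1.21% and 5.92%. Inside the short ID1 locus itself the cover was 44.4% in vector and 0 in both ERG lists. For the locus alone, the median over expressed genes was 1.80% in vector and also 0 in both ERG lists. With 20 kb to either side, TGFB1, TGFBR2, SMAD3 and SMAD7 had 0 in both ERG lists. The share of expressed genes at 0 was not counted. Within 1 kb of the gene start, only ID1 in vector had a region, beside 8.89% of expressed genes. At a fold enrichment of at least 2 that region was gone, and 2.45% of expressed genes had one. Of the 492265, 228233 and 252784 regions, few passed a q-value of 0.01, at 29, 39 and 3413, from ChIP libraries of 19444504, 16513053 and 26454542 reads.

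**Figure D5:**
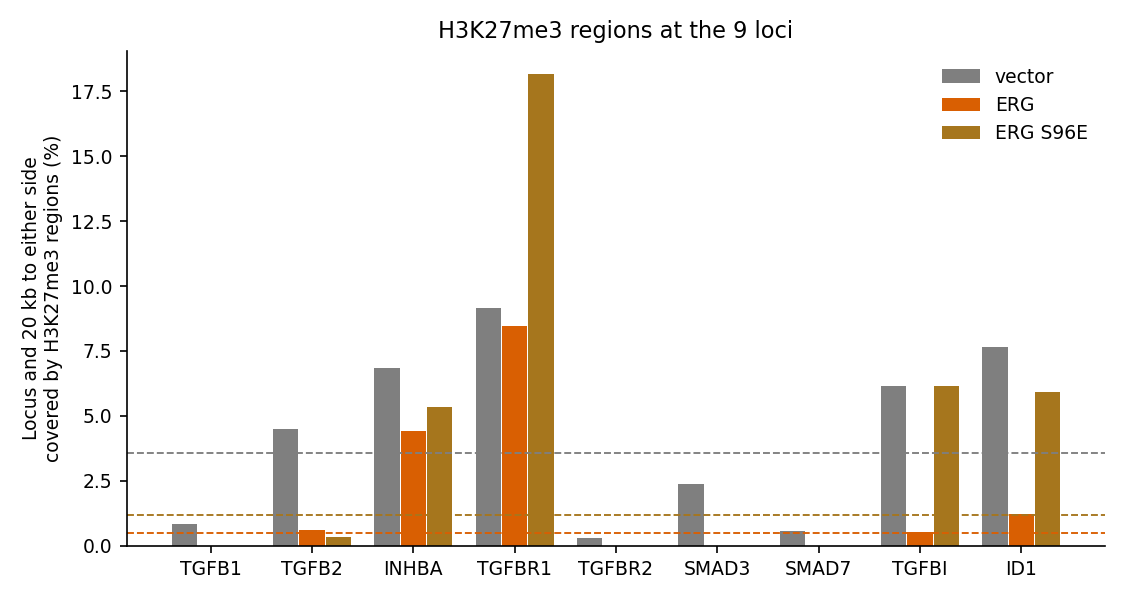
Percent of each locus with 20 kb to either side covered by H3K27me3 regions (y axis, bars from 0) for the 9 genes in the vector, ERG and ERG S96E lines, with dashed lines in the same color at the median over expressed genes. TGFBR1 is the highest in each list (9.16%, 8.44% and 18.2%), and 4 genes have no bar in either ERG list. The share of expressed genes without cover was not counted.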

How the data were processed

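Values came from the processed files that the authors deposited, all on hg19. RNA-seq reads were aligned with TopHat2 and compared with Cuffdiff by the authors, whose deposited table gives FPKM for 26253 gene symbols in 6 pairs of 4 lines, pooled over 3 libraries a line. Its columns of fold changes, test statistics, p-values and q-values are the authors' own comparisons and were not used, and 4 symbols with more than 1 FPKM for a line were left out. Peak lists are the authors' deposited MACS2 output (Bowtie2 alignments, duplicates removed, input as control for ChIP, p-value limits of 0.001 for ERG and 0.01 for ERK2), with a pileup height, a fold enrichment, a −log10 p-value and a −log10 q-value per region. Pileup signal was not compared between libraries. The ERG, ERK2 and H3K27me3 headers record 8393459 to 26454542 ChIP reads, the RWPE1+mAKT ATAC-seq header 35688481 fragments, and the depth of RNA-seq and of the other lists is unknown. The peak names or headers of 2 further lists name other samples than their labels do, so these were not used, and no list of RWPE1-Vector ATAC-seq was analysed here.

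Log2 ratios used FPKM + 0.1, with genes of FPKM of at least 1 in either line. With 1 pooled value a line no test, SD or interval was possible, and a call is a ratio past 2-fold. Peaks sharing at least 1 bp with the table's locus and 20 kb to either side were counted, and places were read from the canonical transcript of GENCODE release 44 on GRCh37. Sequences are GRCh37, and promoters (250 bp before to 50 after a start) are RefSeq on GRCh38.p14. The members, lists and motifs were chosen with earlier results of these data known. Beside the members, other pathway genes were named where past 2-fold in 1 of the 4 comparisons with an FPKM of at least 5, with some genes of the lists not reported here, and every ERG peak and gene-start ATAC-seq peak of a member was read. The alternatives were other fold limits, pseudocounts, filters, centring, windows, peak limits and gene spans. Counting code was tested on simulated data. Python 3.11.15, pandas 2.3.3, numpy 2.4.6, pysam 0.24.0 and matplotlib 3.10.9 were used.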

Additional observations from a re-analysis of the deposited data

Results flagged for a closer look

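INHBA was higher with ERG alone and lower with ERG in cells that carried mAKT, past 1.5-fold each way. The log2 ratio was 0.92 for ERG over vector and -0.71 for ERG+mAKT over mAKT, a difference of -1.63. Each ratio rests on 1 pooled FPKM per line, and the difference was not tested. The 2 lines with mAKT also differed in AKT1, at an FPKM of 156 in RWPE1-mAKT and 281 in RWPE1-ERG+mAKT.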

How the results depend on the processing

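No paired analysis was possible because the table gives 1 pooled FPKM per line, and leaving out a library was not possible for the same reason. With a pseudocount of 1, the log2 ratio of TGFB2 was 0.25 for ERG over vector and 0.25 for ERG+mAKT over mAKT, that of SMAD7 was -0.32 for ERG over vector, -0.40 for ERG+mAKT over ERG and -0.58 for ERG+mAKT over mAKT, and that of INHBA for ERG+mAKT over ERG was -0.98, under 2-fold. The difference between the log2 ratios with ERG was -1.53 for INHBA and -0.26 for SMAD7 with a pseudocount of 1, an alternative added after the data were seen. With a pseudocount of 0.01, SMAD7 was -1.04 over mAKT. Centred, INHBA was -0.995 and TGFBI -0.956 for ERG+mAKT over ERG. No member called past 2-fold changed sign under any of these.

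Members past 2-fold lower in ERG+mAKT over ERG were 2, but 4 at 1.5-fold, 1 with a pseudocount of 1 and 0 when centred. For ERG+mAKT over mAKT they were 0, but 2 at 1.5-fold and 1 with a pseudocount of 0.01. At 1.5-fold ERG over vector held 1 higher and 2 lower, and mAKT over vector 1 higher. Over all genes, in the order ERG over vector, mAKT over vector, ERG+mAKT over ERG and ERG+mAKT over mAKT, 1.5-fold gave 1150, 372, 733 and 731 higher and 602, 354, 1150 and 428 lower. With FPKM of at least 5, the last 3 held 123, 187 and 231 higher, and the 4 held 96, 85, 295 and 92 lower. Without a filter, the last 2 held 643 and 575 higher, and ERG over vector, mAKT over vector and ERG+mAKT over mAKT held 367, 241 and 244 lower. A pseudocount of 1 gave 123 lower for ERG over vector and 103 for mAKT over vector.

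Within 20 kb of the gene start alone, members with a peak were 2 for ERG in RWPE1-ERG+mAKT (3 peaks, 15.2% of all genes), 0 in VCaP (0 peaks, 11.6%), 5 for ERK2 in vector (21 peaks) and 2 in RWPE1-ERG (13 peaks, 15.6%), and ATAC-seq peaks were 32, 33 and 26 with ERG, with mAKT and with both. At a q-value of at most 0.01 they were 3 for ERG in RWPE1-ERG+mAKT (3 peaks, 2.23%), 0 in VCaP (0 peaks, 6.62%), 1 for ERK2 in vector (1 peak, 2.27%) and 1 in RWPE1-ERG (1 peak, 1.51%). The 33000 ATAC-seq peaks of lowest p-value gave 43 and 40 peaks in RWPE1-ERG and RWPE1+mAKT, a window of 50 kb gave 16 ERG peaks in RWPE1-ERG+mAKT, and the GENCODE transcript gave 31 ERK2 peaks in vector. The median H3K27me3 cover in vector, RWPE1-ERG and RWPE1-ERG S96E was 0.590%, 0 and 0 at a fold enrichment of at least 2, and 2.70%, 0 and 0 in the locus alone. Stricter limits and narrower windows keep fewer genes, peaks or bases by construction, and the cause of the other moves was not tested. At a 1.5-fold limit INHBA in mAKT over vector was also lost when centred (0.57) or with a pseudocount of 1 (0.55), and the H3K27me3 region at the ID1 start in vector was lost at a fold enrichment of at least 2. The other counts of genes past 2-fold and of peaks stayed within 1.5 times the value given.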
